A study of Mus musculus with 6 samples.

Results

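The NF-κB pathway was examined through 33 genes in resting mouse splenic CD4 T cells treated with vasoactive intestinal peptide (VIP). The genes were chosen by name: every probe other than a control whose gene name in the scanner tables is one of the 33. All 33 were found, of 28632 gene names on the array, and they are read by 53 of its 41174 probes. The chosen set spans the DNA-binding subunits, the inhibitors that hold them, the kinases that release them, the adaptors upstream and the genes that end the response.

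VIP-treated and untreated cells were compared, with 6 samples of each treatment. The cells were helper T cells of C57BL/6J mice, taken up with magnetic beads against CD4 from 5 to 10 pooled spleens per sample, from males and females of 6 to 32 weeks. Each of 6 Agilent arrays carried 1 VIP-treated and 1 untreated sample in 2 colours, VIP in Cy5 on replicates 1, 3 and 5 and in Cy3 on replicates 2, 4 and 6. Neither the dose nor the duration of VIP treatment is given in the sources used here. Spleens were pooled, so the values describe pools of mice. The same ranges of age and spleen number are given for every replicate, so how ages and sexes were spread over the samples is not known here. The labels number 6 biological replicates and name no spleens for them, so p-values measure the spread between these arrays.

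NF-κB is a family of dimeric transcription factors that resting cells keep in the cytoplasm, bound to IκB inhibitors. Signals from the T cell receptor, TNF-family receptors or Toll-like receptors activate the IκB kinase complex, which marks IκB for destruction and lets the dimers enter the nucleus. Among the genes they then induce are the inhibitor Nfkbia and the ubiquitin editor Tnfaip3, which close the loop. VIP acts on lymphocytes through receptors that raise cyclic AMP, whose own nuclear factor CREB binds the cAMP response element (CRE).

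The promoters of those 2 feedback genes are shown because they had the largest differences with VIP among the members. Each sequence is the 250 bases before the start in RefSeq on GRCm38.p6, written 5′ to 3′ on the gene's strand, and capitals mark matches to the κB consensus on either strand. Nfkbia starts on the minus strand of chromosome 12, with its bases at chr12:55492648-55492897, and holds 1 match, which begins at -29.
Nfkbia: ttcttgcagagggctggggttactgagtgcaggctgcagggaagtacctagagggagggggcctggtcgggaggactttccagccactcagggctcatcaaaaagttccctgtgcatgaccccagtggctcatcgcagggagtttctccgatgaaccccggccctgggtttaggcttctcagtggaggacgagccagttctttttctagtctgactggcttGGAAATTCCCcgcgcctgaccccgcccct
Tnfaip3 is on the minus strand of chromosome 10, with the stretch at chr10:19015411-19015660, and holds 2 matches, which begin at -125 and -12.
Tnfaip3: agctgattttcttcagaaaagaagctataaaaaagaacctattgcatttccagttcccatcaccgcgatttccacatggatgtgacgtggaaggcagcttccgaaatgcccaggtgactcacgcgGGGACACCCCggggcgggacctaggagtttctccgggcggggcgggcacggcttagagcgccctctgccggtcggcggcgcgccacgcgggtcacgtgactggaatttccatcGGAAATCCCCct
A second RefSeq promoter of Tnfaip3 held no match.

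The promoter table covered 27 of the 33 members with 40 promoters of 300 bases, which run from 250 before to 50 after the start. It did not list Nfkb1, Relb, Nfkbiz, Ikbkb, Ripk2 or Malt1. The κB consensus of 10 letters, searched on both strands, stood in a promoter of 12 of the 27 members (44.4%), against 9.55% of all 27025 genes in the table. Those 12 were Nfkb2, Rel, Nfkbia, Nfkbie, Nfkbid, Bcl3, Tnfaip3, Tnip1, Cyld, Tank, Traf3 and Bcl10. Counted by promoter, 17 of 40 members' promoters (42.5%) held it, against 8.46% of all 32851. The full CRE, TGACGTCA, was found in Birc2 at -35 and in Nfkbid at -51, and so in 7.41% of the members, against 2.03% of all genes. Its first letters alone, TGACG, which the full site contains, stood in 11 members (40.7%), against 23.1% of all genes. Counted by promoter, the full CRE stood in 5.0% of the members' promoters, against 1.79% of all. For TGACG these shares were 32.5% and 20.8%. A match is a description of letters, and κB and CRE matches were counted separately.

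With VIP, 0 of the 33 members passed a Benjamini-Hochberg adjusted p under 0.05 in the limma fit over all 19225 genes. In that fit 3.09% of all genes passed, 331 higher and 263 lower with VIP. At an unadjusted p under 0.05 there were 8 members (24.2%), against 16.7% of all genes. Of these, 2 were higher with VIP, Tnfaip3 and Rela, where 7.51% of all genes were. The other 6 were lower, Nfkbia, Bcl3, Ikbkb, Ikbkg, Ikbke and Cyld, where 9.21% of all genes were. That count of 8 was 3 without replicate 1, without replicate 5 or without replicate 6. It was also 3 with the scanner's processed signals and from the authors' deposited table, 2 with median centring or with no dye term, and 0 with the 12 samples unpaired. All 33 members were well above background on 6 of 6 arrays in both treatments, so none was lost to low signal.

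The differences were small on both sides. Fitted log2 ratios of VIP-treated over untreated ran from -0.31 for Nfkbia to 0.24 for Tnfaip3, with 14 members above 0 and 19 below. Their median was -0.012, against -0.0048 for all genes tested. The other 25 members lay between -0.084 and 0.11, with adjusted p-values of 0.342 or more by limma. For 29 of the 33 the 95% interval of the fitted ratio stayed within 0.25 of 0 on the log2 scale. These are bulk samples, in which fewer cells of a type and less RNA per cell cannot be told apart.

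**Figure D1:**
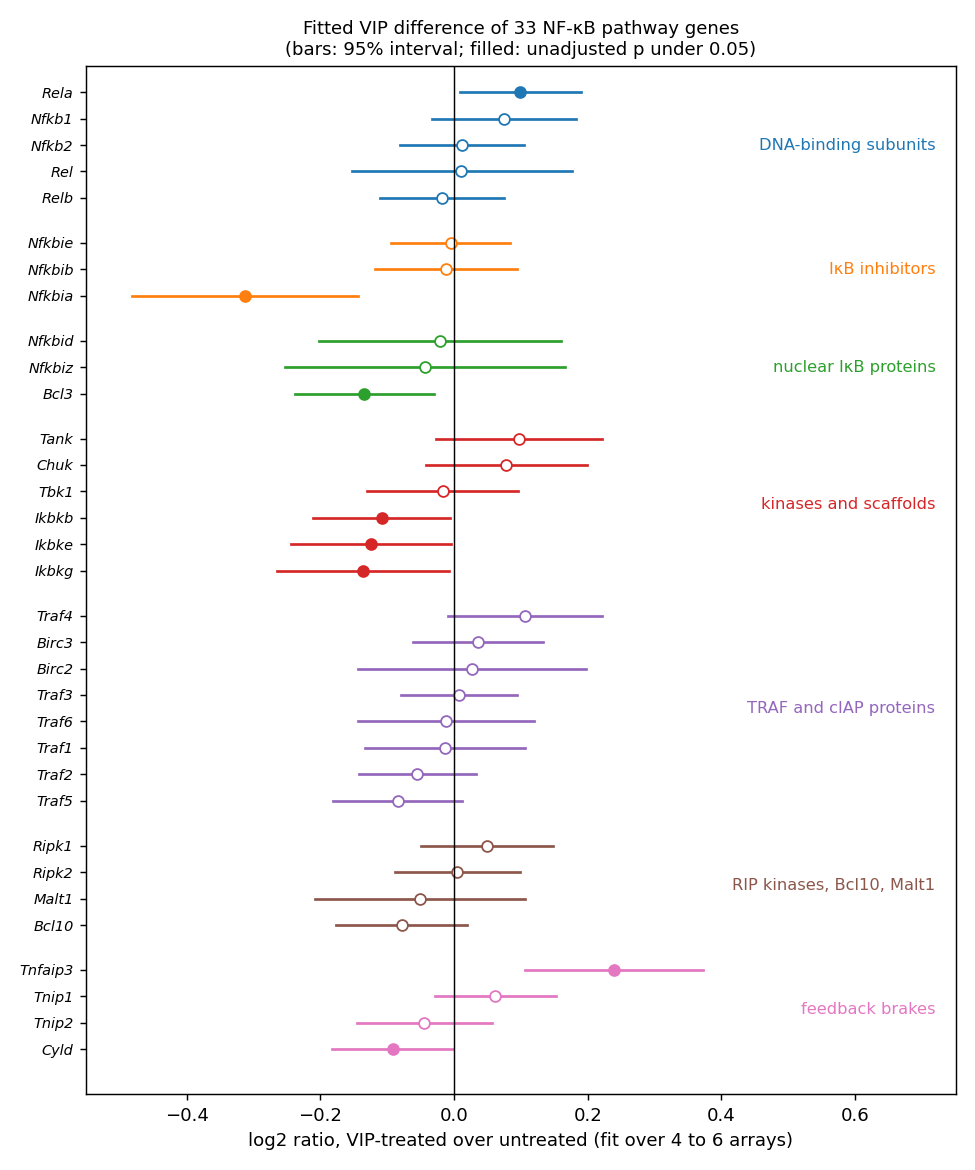
Fitted log2 ratio of VIP-treated over untreated cells (x axis) for each of the 33 genes (rows, grouped by role), with bars for the 95% interval and filled points for an unadjusted p under 0.05 in limma. Nfkbia stands lowest at -0.31 and Tnfaip3 highest at 0.24, and the other 31 genes lie between -0.14 and 0.11.

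Nfkbia encodes IκBα, the inhibitor that holds NF-κB dimers in the cytoplasm and is itself induced by them. Its normalised log2 intensity had a lowest value of 16.53, a median of 16.82 and a highest value of 16.99 in VIP-treated samples, against 16.76, 17.02 and 17.72 in untreated samples. The ranges of the treatments overlapped, but within every array the VIP-treated sample was the lower one. By replicate 1 to 6, the log2 ratio was -0.28, -0.23, -0.20, -0.21, -0.10 and -0.85. A single sign on all 6 arrays was seen for no other member, and for 6.29% of all genes tested. Genes measured on fewer arrays are counted in that share but could not reach it, and among the members these were Tnfaip3, Traf1 and Tank. The fitted ratio of Nfkbia was -0.31 ± 0.076 (SE, n = 6, 1.24-fold lower with VIP), with an adjusted p of 0.0562 by limma, just outside the threshold.

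Replicate 6 carried much of that size. Its untreated sample, at 17.72, was the highest of all 12, while its VIP-treated sample, at 16.87, lay inside the range of the others. Summed markers of CD4 T cells, over those measured on that array, also stood apart there, at 571417 with VIP and 715052 without (log2 ratio -0.32), while the other 5 arrays had log2 ratios between -0.095 and 0.0008. The part of this in the Nfkbia reading was not tested. Without replicate 6 the Nfkbia ratio was -0.21 (adjusted p = 0.0671 by limma). By slide, each of which held 2 arrays of opposite dye, the mean ratio was -0.26, -0.21 and -0.47. Nfkbia did pass the threshold in the limma fit with slide as a block (adjusted p = 0.0302), with no filter on dim probes (0.0497) and without replicate 4 (0.0494). Its adjusted p ranged up to 0.223 in the other paired settings and was 1 with the 12 samples unpaired.

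The probe of Nfkbia lies on the minus strand of chromosome 12 between 56590945 and 56591440 in mm9, a span of 496 bases for a probe of 60. It was saturated on 0 arrays. No exon annotation of that build was used here.

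The remaining IκB inhibitors had fitted values close to 0. Nfkbib, which encodes IκBβ, had a fitted log2 ratio of -0.012 ± 0.048 (SE, n = 6), and Nfkbie, which encodes IκBε, had -0.0048 ± 0.040. The sign of Nfkbie turned under other ways of processing, and neither value lies outside its error.

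Tnfaip3 encodes an enzyme that edits ubiquitin chains and shuts off signalling from TNF and Toll-like receptors. It was measured on 4 arrays, because the scanner software marked its only spot as an outlier on replicates 3 and 6. On replicates 1, 2, 4 and 5 its log2 intensity was 16.45, 16.22, 16.51 and 16.86 in VIP-treated samples, against 16.19, 16.04, 16.14 and 16.73 in untreated samples. The VIP-treated sample was the higher one on each of those 4 arrays, while the treatments overlapped between arrays. The ratios were 0.26, 0.18, 0.38 and 0.14, and the fit gave 0.24 ± 0.058 (SE, n = 4, 1.18-fold higher), with an adjusted p of 0.0705 by limma.

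Read anyway, the marked spots gave 0.16 on replicate 3 and -0.17 on replicate 6. With them kept, the fitted ratio of Tnfaip3 was 0.16 (adjusted p = 0.291 by limma). On mm9 the Tnfaip3 probe covers bases 18720994 to 18721053 of chromosome 10, on the minus strand.

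Of the other brakes, Cyld encodes a deubiquitinase that removes the chains on which IκB kinase is activated. Its log2 intensity had a lowest value of 11.51, a median of 11.76 and a highest value of 12.24 in VIP-treated samples, against 11.46, 11.83 and 12.42 in untreated samples. The treatments overlapped almost entirely, and the VIP-treated sample was lower on 5 of 6 arrays. The fitted ratio was -0.092 ± 0.041 (SE, n = 6; adjusted p = 0.294 by limma), and 2 further probes gave -0.041 and -0.018. Tnip1 and Tnip2, partners of the Tnfaip3 enzyme, had fitted ratios of 0.062 ± 0.041 and -0.044 ± 0.046.

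**Figure D2:**
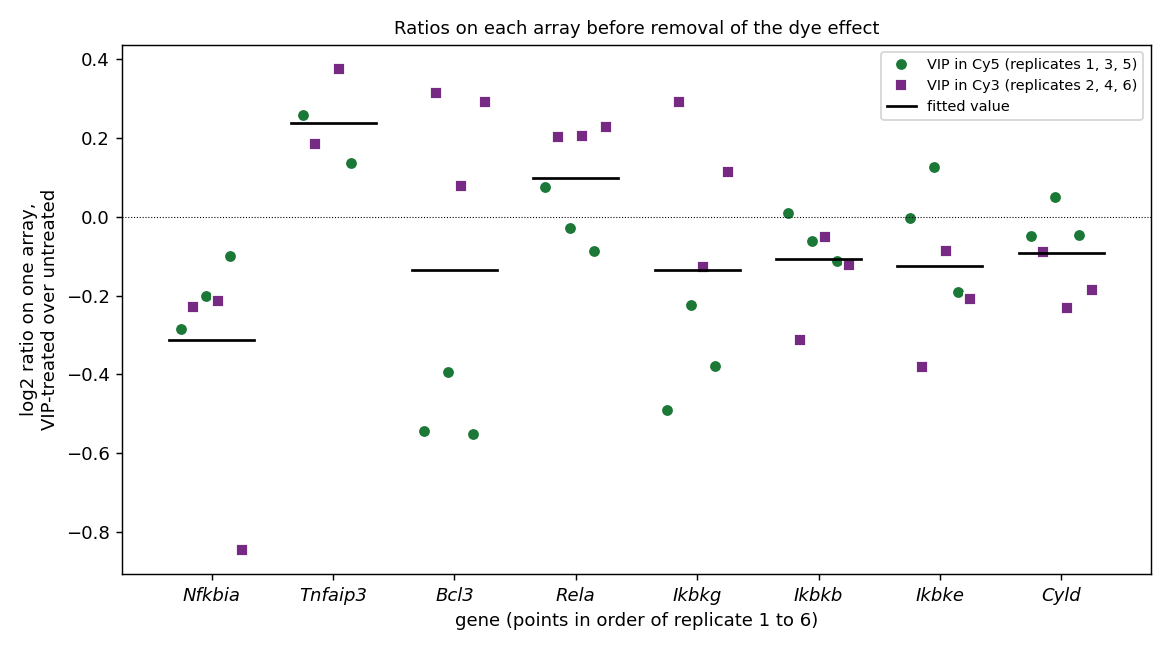
Log2 ratio of VIP-treated over untreated cells on each array (y axis) for the 8 members with an unadjusted p under 0.05 (x axis, points in order of replicate), by the dye that VIP carried, with a line for the fitted value. All 6 Nfkbia points and no Tnfaip3 point lie below 0, and the Bcl3 points split by dye.

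Among the DNA-binding subunits, Rela, the main activating subunit, stood highest. In VIP-treated samples Rela had a lowest log2 intensity of 13.50, a median of 13.91 and a highest of 14.27, against 13.58, 13.77 and 14.04 in untreated samples. The treatments overlapped, and the VIP-treated sample was the higher one on 4 of 6 arrays. The fit gave 0.099 ± 0.041 (SE, n = 6), with an adjusted p of 0.246 by limma. A second Rela probe, printed 10 times on each array, gave 0.061 ± 0.041.

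Nfkb1, which encodes the precursor of the subunit that most often pairs with Rela, had a fitted ratio of 0.075 ± 0.049 (SE, n = 6). The mean of its 4 kept probes was 0.015, and the other 3 gave 0.032, -0.0075 and -0.038. The probe that represents it was also printed 10 times. After removal of marked spots, 5 to 10 spots were left on each array, and their SD within an array was between 0.029 and 0.062, while the SD of the array means was 0.15, or 0.11 with the dye effect removed. For the Rela probe with 10 spots, the SD was between 0.031 and 0.092 within arrays and 0.12 between them, dye effect included. The subunits of the noncanonical arm, Nfkb2 and Relb, had fitted ratios of 0.012 ± 0.042 and -0.018 ± 0.042.

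The nuclear IκB proteins bind dimers in the nucleus and change which genes they act on. Bcl3 had a lowest log2 intensity of 13.04, a median of 13.40 and a highest of 13.92 in VIP-treated samples, against 13.09, 13.59 and 13.88 in untreated samples. The treatments overlapped, and the sign of the ratio followed the dye. With VIP in Cy5 the ratio averaged -0.50 ± 0.089 (SD, n = 3), and with VIP in Cy3 it averaged 0.23 ± 0.13 (SD, n = 3). The fit, which separates the 2, gave a VIP difference of -0.13 ± 0.047 (SE, n = 6; adjusted p = 0.174 by limma) beside a dye term of -0.36.

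Dye effects were not limited to Bcl3, nor to the members. For 24 of the 33 members the dye term was larger in size than the VIP difference, and the share of all genes was not counted. The median size of the dye term was 0.11 over the members and 0.070 over all genes, beside median VIP differences of 0.051 and 0.048 in size. The median dye term was thus the larger over all genes as well.

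The other nuclear IκB genes, Nfkbid and Nfkbiz, and the T cell subunit Rel had fitted ratios near 0, at -0.021 ± 0.082, -0.044 ± 0.095 and 0.011 ± 0.074 (SE, n = 6). Their arrays did not resemble each other. For Rel the ratio by replicate 1 to 6 was -0.079, 0.15, -0.53, 0.064, -0.047 and 0.51. Nfkbid read 0.015, 0.11, -0.62, 0.0068, -0.0006 and 0.37, and Nfkbiz read 0.055, 0.050, -0.58, -0.21, -0.078 and 0.50.

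All 3 genes were lowest with VIP, relative to untreated cells, on replicate 3 and highest on replicate 6. VIP was in Cy5 on the first of these arrays and in Cy3 on the other, and the dye terms were -0.23 for Rel, -0.18 for Nfkbid and -0.16 for Nfkbiz. With the dye effect removed, replicate 3 read -0.30 for Rel, -0.44 for Nfkbid and -0.42 for Nfkbiz, and replicate 6 read 0.28, 0.19 and 0.34. Replicate 3 stayed the lowest for each, while Nfkbid was then highest on replicate 1, at 0.20. After the same removal, the SD over arrays was 0.31 for Nfkbiz, 0.26 for Nfkbid and 0.23 for Rel, against a median of 0.10 over all genes. The SD of Nfkbiz lay above that of 98.7% of genes measured on 6 arrays, that of Nfkbid above 97.3% and that of Rel above 95.4%. Birc2, above 96.2%, and Nfkbia, above 96.1%, had larger SDs than Rel. At the tight end, Traf3 and Traf2 had SDs of 0.032 and 0.037.

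The pattern of replicates 3 and 6 was not particular to these 3 genes. Before removal of the dye effect, the NF-κB targets Cd69, Cd83, Icam1 and Myc were also lowest on replicate 3, at -0.64, -0.40, -0.44 and -0.64. They were highest on replicate 6, at 0.49, 0.51, 0.57 and 0.79. Fth1, of the same list, ran the other way, and the members Traf4, Chuk and Bcl10 had the pattern at smaller sizes. Markers of other cell types also differed between these arrays. The macrophage and monocyte list had 11 markers on the array, of which Vcam1 also stands in the list of NF-κB targets. Sums are over the markers measured on an array, and Lyz2 was not measured on replicate 3. Without Lyz2, the summed intensity on replicate 3 was 4580 in the VIP-treated and 5790 in the untreated sample. On replicate 6, with Lyz2 included, it was 40345 with VIP and 29849 without. The log2 ratio of the sums by replicate 1 to 6 was -0.034, 0.20, -0.34, 0.042, 0.0042 and 0.43, lowest and highest on the same arrays as the ratios of Rel, Nfkbid and Nfkbiz. With the dye effect removed it was 0.14, 0.028, -0.16, -0.13, 0.18 and 0.26, still lowest on replicate 3 and highest on replicate 6. The replicate 3 ratio is of a smaller set of markers than the other ratios, without Lyz2. It also enters the dye effect that was removed, so the arrays are not strictly alike in this comparison. Summed neutrophil markers, also lowest on replicate 3 and highest on replicate 6 as a ratio, stood at 1246 with VIP and 1672 without on replicate 3, and at 2026 with VIP and 1013 without on replicate 6. Of the 7 neutrophil markers, 3 were above background on all arrays in each treatment, so these sums are low. On replicate 6 the log2 ratio was 1.56 for S100a9 and 0.87 for S100a8, but 0.15 for Csf3r, 0.059 for Ngp and 0.029 for Mpo. With the dye effect removed the ratio of the neutrophil sums was lowest on replicate 4, at -0.23, and highest on replicate 6, at 0.72. Summed dendritic cell markers ran the other way, with a log2 ratio of 0.31 on replicate 3 and -0.22 on replicate 6, or 0.058 and 0.025 with the dye effect removed. The part of these cells in the readings of the 3 genes was not tested.

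**Figure D3:**
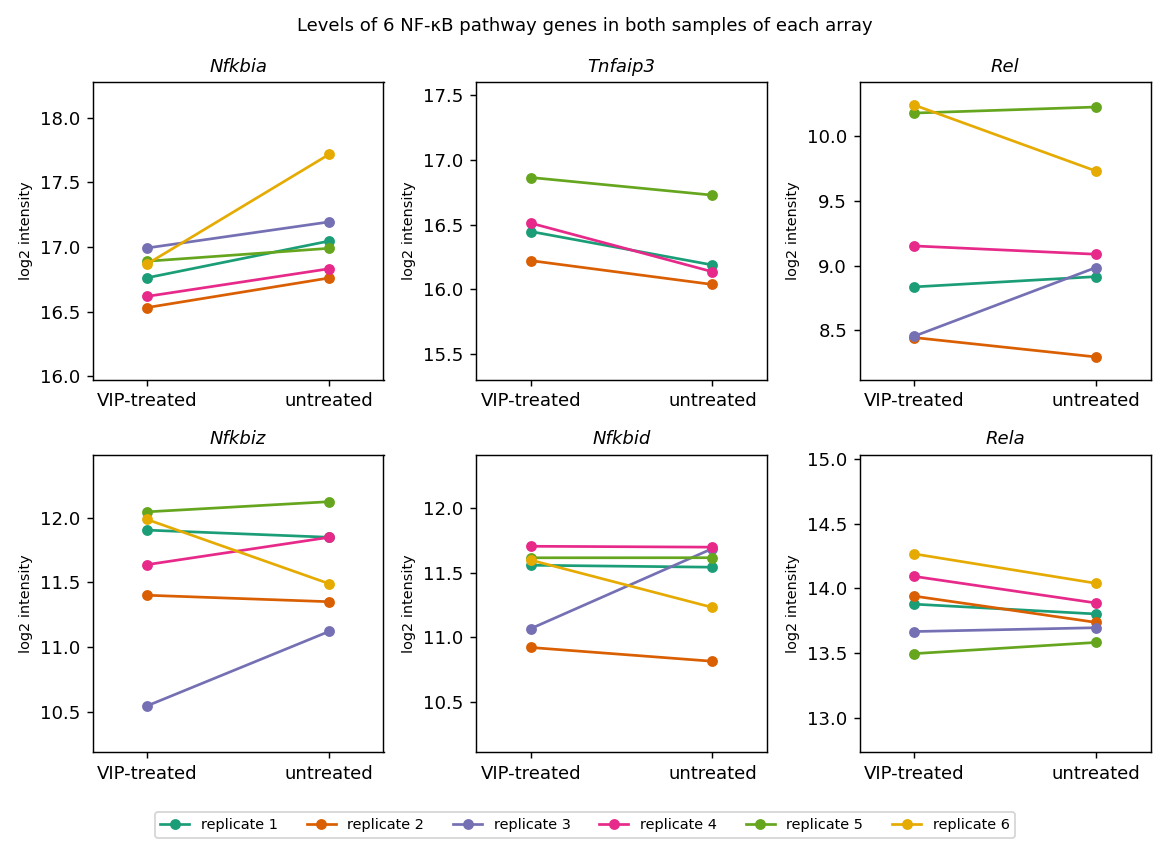
Normalised log2 intensity (y axis, the same height of scale in each panel) of 6 genes in the VIP-treated and the untreated sample of each array, joined by a line per replicate. Nfkbia lines run lower with VIP on all 6 arrays, those of Tnfaip3 higher on the 4 arrays measured, and those of Rel, Nfkbiz and Nfkbid cross, with replicates 3 and 6 in opposite directions.

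Levels of several members also differed between replicates in both treatments alike. The only Rel probe, of 60 bases, is given a span of 15 in the files, from 23641729 to 23641743 on the minus strand of chromosome 11 in mm9, so where its other bases lie is not known here. Rel had log2 intensities between 8.44 and 10.24 in VIP-treated samples, and between 8.29 and 10.23 in untreated samples. Averaged over both samples of an array, Rel spanned 3.57-fold between replicates, with an SD of 0.73 that exceeded that of 99.2% of genes. Replicates 5 and 6 were the high ones for Rel, and summed macrophage and monocyte markers were highest on the same 2 arrays. The sum on replicate 3 lacked Lyz2, and the part of these cells in the Rel level was not tested. Traf2 spanned 2.65-fold, with replicates 2 and 6 high, and Nfkbiz spanned 2.38-fold, with replicate 3 low.

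Chuk and Ikbkg were the steadiest between replicates, with SDs of 0.090 and 0.076. The median SD over the 30 members measured on 6 arrays was 0.22, against 0.19 over all genes. The VIP difference was larger than this SD for 2 of the 30, Nfkbia and Ikbkg.

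**Figure D4:**
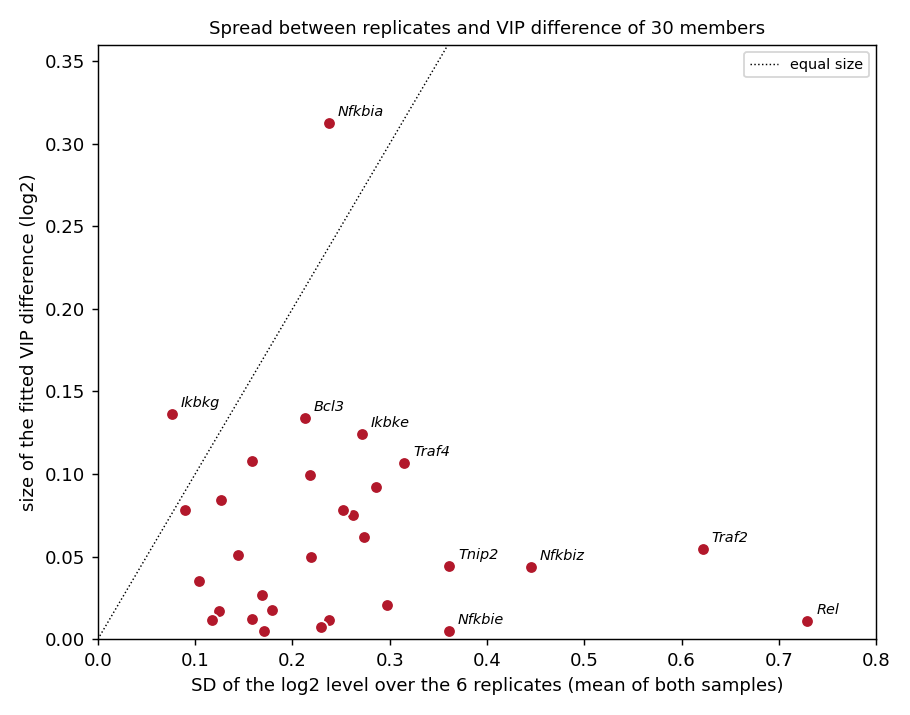
Size of the fitted VIP difference (y axis, log2) against the SD of the log2 level over the 6 replicates (x axis, mean of both samples of an array) for the 30 members measured on 6 arrays, with a dotted line where the 2 are equal. Nfkbia and Ikbkg lie above the line, and Rel, at an SD of 0.73, lies farthest to the right.

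Of the 6 kinase and scaffold genes, 0 passed the adjusted threshold in limma, and 3 were lower with VIP at an unadjusted p under 0.05, where 9.21% of all genes were. Ikbkg encodes NEMO, the regulatory subunit of the kinase complex. Its log2 intensity had a lowest value of 9.40, a median of 9.54 and a highest of 9.64 in VIP-treated samples, against 9.34, 9.73 and 9.89 in untreated samples. The treatments overlapped, with 4 of 6 arrays lower with VIP. The fit gave -0.14 ± 0.058 (SE, n = 6; adjusted p = 0.269 by limma). Its 3 dimmer probes gave -0.053, -0.020 and 0.0019, so the lower reading rests on 1 of 4 probes.

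Ikbkb encodes the catalytic subunit that phosphorylates IκB in the canonical pathway. In VIP-treated samples its lowest, median and highest log2 intensities were 11.59, 11.85 and 12.04, against 11.72, 11.95 and 12.17 in untreated samples. Ranges overlapped, and the VIP-treated sample was lower on 5 of 6 arrays. The fitted ratio was -0.11 ± 0.046 (SE, n = 6; adjusted p = 0.269 by limma).

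Ikbke encodes IKKε, a related kinase of the interferon and NF-κB responses. Its lowest, median and highest log2 intensities were 10.49, 10.93 and 11.06 in VIP-treated samples, against 10.58, 11.00 and 11.44 in untreated samples. The VIP-treated sample was lower on 5 of 6 arrays, on replicate 1 by 0.0019 only, and the treatments overlapped. The fit gave -0.12 ± 0.054 (SE, n = 6; adjusted p = 0.277 by limma).

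The other 3 genes of this group had an unadjusted p of 0.05 or more. Chuk, the catalytic partner of the Ikbkb kinase, had a fitted ratio of 0.078 ± 0.055, and its second probe gave -0.038. Tbk1, a kinase related to the Ikbke kinase, had -0.017 ± 0.051. Tank, a scaffold that binds the Tbk1 and Ikbke kinases, had 0.097 ± 0.055 over 5 arrays, without replicate 2, where its spot was marked as an outlier. The median over the 6 genes was -0.063.

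None of the 8 TRAF and cIAP genes had an unadjusted p under 0.05. These adaptors and ubiquitin ligases carry signals from TNF-family and Toll-like receptors to the kinases. Fitted ratios ran from -0.084 for Traf5 to 0.11 for Traf4, with a median of -0.0024 and 4 of 8 above 0. Traf4 had a second, dimmer probe at 0.19 ± 0.056 (SE, n = 6), whose unadjusted p was 0.00629 in a limma fit of single probes. Its first probe, at 0.11 ± 0.052, pointed the same way with an unadjusted p of 0.0656.

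The cIAP ligases Birc2 and Birc3 had fitted ratios of 0.027 ± 0.077 and 0.035 ± 0.044. On replicate 2 Birc2 read -0.43, while the other 5 arrays read between 0.022 and 0.23. Traf2, which recruits both ligases, had -0.055 ± 0.039, and Traf3, which restrains the noncanonical arm, had 0.0073 ± 0.039. Traf6, the ligase of Toll-like receptor signalling, had -0.012 ± 0.059, and its second probe, with signal well above background on a single array, was left out. Traf1, an inducible adaptor, had -0.014 ± 0.053 over 4 arrays, because its spot was marked on replicates 3 and 6.

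None of the 4 genes next to the receptors had an unadjusted p under 0.05 in the fit over genes. Bcl10 and Malt1, which form the complex that links the T cell receptor to IκB kinase, had fitted ratios of -0.078 ± 0.044 and -0.051 ± 0.071. Both probes of each gene were below 0, and the second probe of Malt1 gave -0.14 ± 0.056 (unadjusted p = 0.0264 in the limma fit of single probes). Ripk1, the kinase of TNF receptor complexes, had 0.050 ± 0.045, with 3 of 3 probes above 0. Ripk2, which serves the NOD receptors, had 0.0051 ± 0.042.

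For 12 members more than 1 probe was kept, and in 7 of them all probes had 1 sign. Signs were mixed in Ikbkg, Birc3, Chuk, Nfkb1 and Tank. The largest difference between probes of a gene was 0.14, in Tank.

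Further genes of the pathway were read from 2 lists. Of 56 upstream gene symbols, older ones included, 50 were on the array and 48 were tested. Among these, Map3k7ip2 and Tab2 are names of the same gene, read from separate probes at -0.020 and -0.018. Of the 48, 1 rose and 0 fell at an adjusted p under 0.05, against 1.72% and 1.37% of all genes. It was Irak3, an inactive kinase that restrains Toll-like receptor signalling, at a fitted log2 ratio of 0.32 ± 0.055 (SE, n = 6, 1.25-fold, adjusted p = 0.0114 by limma), higher on 6 of 6 arrays. By replicate 1 to 6 its ratio was 0.49, 0.069, 0.51, 0.42, 0.39 and 0.043. At an unadjusted p under 0.05 there were 12 genes, 9 higher and 3 lower, 25.0% against 16.7% of all genes. The median of the list was 0.0081.

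Of 52 genes known as NF-κB targets, 49 were on the array and 47 were tested. With VIP 2 rose, 1 fell and 44 did not pass, where 1.72% of all genes rose and 1.37% fell. An unadjusted p under 0.05 was seen for 9 (19.1%), near the 16.7% of all genes. The median of the list was -0.0093. Ccr7, the receptor that guides naive T cells to lymph nodes, rose by 0.29 ± 0.062 (SE, n = 6, adjusted p = 0.0322 by limma), higher on 5 of 6 arrays. Tnfrsf1b, a TNF receptor, rose by 0.23 ± 0.051 (adjusted p = 0.0368), also higher on 5 of 6. Ltb, which encodes lymphotoxin beta, fell by 0.36 ± 0.070 (adjusted p = 0.0198), lower on 4 of 6.

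The Ltb ratio depended on the dye, at 0.034, -0.16 and 0.22 with VIP in Cy5 and at -0.74, -0.50 and -1.03 with VIP in Cy3. The count of 3 called targets was 0 without replicate 1, and 1 without replicate 3, without replicate 5 or without replicate 6. Several genes of this list are also controlled by other factors, so their values are not a measure of NF-κB alone.

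Defining markers of CD4 T cells were present. All 15 of that list were well above background on every array in both treatments. Summed over those measured on an array, their intensity ran from 514858 to 622471 in VIP-treated and from 529430 to 715052 in untreated samples. Of the 14 tested, 2 fell and 0 rose at an adjusted p under 0.05 in limma, against 1.37% and 1.72% of all genes. At an unadjusted p under 0.05, 4 were lower and 0 higher, against 9.21% and 7.51% of all genes. Thy1, a surface glycoprotein of T cells, fell by 0.29 (adjusted p = 0.0149 by limma). The median of the list was -0.071, against -0.0048 for all genes, and with the dye effect removed it was below 0 on 6 of 6 arrays, while Cd4 itself had a fitted ratio of 0.012 ± 0.041 (SE, n = 6). Markers of other spleen cells were also detected, and 0 markers of any list stayed below background in every sample. Over the macrophage and monocyte list the sum ran from 4580 to 62174 with VIP and from 5790 to 61992 without. Both low ends were on replicate 3, where Lyz2 was missing from the sum. Replicate 2, the next lowest, had 25878 with VIP and 22483 without. In that list 10 of 11 markers were above background on all arrays. B cell markers summed to between 8169 and 16175 with VIP and between 9438 and 16985 without. No gene of the B, plasma, macrophage and monocyte, neutrophil, dendritic, NK, CD8 T, erythroid or platelet lists passed the adjusted threshold.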

How the data were processed

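Per the file headers, Agilent Feature Extraction 9.5.1.1 wrote the deposited tables, which give each spot's intensity and mm9 coordinates. The authors also deposited a table of log10 ratios per spot, which is the scanner's Cy5 over Cy3 ratio with its sign turned on replicates 2, 4 and 6, so positive is higher with VIP; it served as an alternative. Background was corrected with normexp (offset 50), then loess was run within arrays after control and outlier-marked spots (1.93% to 8.96% per array) were left out. A probe was kept if well above background on at least 3 of 6 arrays in either treatment's channel and measured with each dye orientation on 2 arrays or more, which left 27454 probes. Each of 19225 genes was read from its kept probe of highest mean intensity.

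Log2 ratios of VIP-treated over untreated were fitted with limma 3.58.1 in R 4.3.3 with a dye term, which pairs both samples of an array. Tests were 2-sided, with Benjamini-Hochberg adjustment over all genes. Errors are standard errors unless named SD. Levels per sample were quantile-normalised on mean intensity across arrays. Precision is limited by the number of arrays, with a median standard error of 0.048. The script was tested on simulated data. The members and gene lists were chosen with earlier results of these data known; members with an unadjusted p under 0.05 are described in full, and called list genes are named. Gene names are those of the files for members and were updated through RefSeq accessions for 24844 probes. Alternatives changed the background correction, normalization, filters, outliers, dye term, slide, probe choice, values, pairing and replicates. One marker's own result is not reported here.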

Additional observations from a re-analysis of the deposited data

How the results depend on the processing

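The number of NF-κB members changed was 1, Nfkbia, with no filter on dim probes and with slide as a block, 0 to 1 when 1 replicate was left out, and 0 in the remaining alternatives. The number of genes changed by VIP, 594 with 331 higher and 263 lower, was 38, 29 and 9 with signals as processed by the scanner software, and 308, 210 and 98 with median centring. It was 124, 87 and 37 with no dye term, and 41, 31 and 10 from the authors' deposited table. With outlier-marked spots kept, 149 were lower. The unpaired analysis of 12 samples, with no replicate block, gave 5, 4 and 1; the pairing comes from the shared array. Leaving out 1 replicate gave 254 to 500 changed, 151 to 280 higher and 103 to 220 lower. Upstream genes changed numbered 0 with processed signals, no dye term, the deposited table and the unpaired analysis, 2 with no filter, with genes on all 6 arrays and with the mean of probes, and 1 to 2 when a replicate was left out. Target genes changed numbered 0 with processed signals, no dye term, the deposited table and the unpaired analysis, 1 with median centring, and 0 to 2 when a replicate was left out. The median of the members never moved by more than its SD over arrays, 0.046. Of 559 member values under these settings 36 changed sign, in 14 members, none above 0.084 in size and none called; 19 members kept their sign throughout. Nfkbie was 0.0019 with processed signals and from the deposited table, 0.0122 with median centring and 0.0011 with marked spots kept. Nfkbid was 0.0026, Birc3 -0.0064 and Traf6 0.0178 with median centring, Birc3 was -0.0099 with the mean of probes, Traf1 0.0371 with marked spots kept, and Ripk2 -0.0135 with processed signals and from the deposited table. Without 1 replicate the ranges were -0.0071 to 0.0296 for Nfkb2, -0.056 to 0.0893 for Rel, -0.0583 to 0.0211 for Nfkbib, -0.0259 to 0.0084 for Nfkbie, -0.14 to 0.0501 for Nfkbiz, -0.0752 to 0.0836 for Nfkbid, -0.0287 to 0.1354 for Birc2, -0.033 to 0.0054 for Traf1, -0.0038 to 0.0206 for Traf3, -0.0472 to 0.052 for Traf6, -0.0442 to 0.0296 for Tbk1, -0.0134 to 0.0333 for Ripk2 and -0.1349 to 0.0253 for Malt1. The causes were not tested. Tnfaip3 and Traf1 rest on 4 arrays and Tank on 5. The median standard error over all genes was 0.048.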
